A study of Mus musculus with 12 samples.

Results

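Messenger RNA was examined for 28 genes of cholesterol synthesis and its control in mouse bile duct organoids. The genes were named by symbol: 19 enzymes of the pathway, 5 genes of the sterol sensing system, 2 sterol carriers and 2 cholesterol exporters. All 28 were found among the 53700 gene identifiers of the deposited count table, and all 28 passed the filter on low counts, which left 15014 genes. The organoids are spheres of cholangiocytes, the epithelial cells that line bile ducts, grown untreated in a basement membrane gel and taken at passage 5. Alagille syndrome is an inherited shortage of bile ducts that mostly arises from mutations of JAG1, a ligand of Notch receptors, and the Ndr allele is a missense change in the mouse gene. Every group held 3 cultures from 3 mice: WT hilar and WT peripheral organoids from Jag1 +/+ mice 1221, 1223 and 1225, and Ndr hilar and Ndr peripheral organoids from Jag1 Ndr/Ndr mice 1219, 1220 and 1224. Each mouse gave 1 hilar and 1 peripheral culture, so the cultures of a mouse share the animal. The Ndr mice carry the allele in the germ line and so in every cell, and a culture holds what grew from 1 piece of 1 liver. Ages and sexes of the mice were not among the labels used here. Values below are in the mouse order just given.

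Cells build cholesterol from acetyl-CoA. The mevalonate arm of the pathway makes the isoprenoid farnesyl pyrophosphate, and the sterol arm joins this to squalene, closes the rings and trims lanosterol to cholesterol. When sterol in the endoplasmic reticulum is low, Scap carries the membrane-bound factor SREBP2 (gene Srebf2) to the Golgi, where proteases free its active part, which turns on nearly every enzyme of both arms. Insig1 and Insig2 hold Scap back when sterol is plentiful. Oxidized sterols switch on the opposite arm, in which liver X receptors (LXR) raise the exporters Abca1 and Abcg1. In the liver, cholesterol is also the source of bile acids, which hepatocytes make and cholangiocytes meet in the bile.

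Library totals ran from 6708822 to 16030880 counts. Genes of cholangiocytes were abundant, since the 14 markers summed to between 12707 and 22604 CPM (each library's counts divided by its TMM-scaled size and brought to a common total) in all 12 libraries. Markers of other cell types were lower. The 15 hepatocyte genes summed to at most 400.5 CPM, with Apoc3 and Cps1 at 0 everywhere. Others of that list were present: Hnf4a had group means of 175 to 237 CPM. Apob ranged from 6.48 CPM in Ndr hilar to 85.3 CPM in Ndr peripheral cultures as group means. Ttr and Alb had means of 42.7 and 22.9 CPM in Ndr hilar against 4.90 and 5.67 CPM in WT hilar cultures. The 10 fibroblast genes summed to at most 28.7 CPM with Dcn and Lum at 0, and the 8 endothelial genes to at most 0.617 CPM with Kdr and Clec4g at 0. The 9 immune genes summed to at most 40.3 CPM with Adgre1 and Clec4f at 0. Group means ran from 2.11 to 15.2 CPM for Reln of the fibroblast list and from 11.0 to 25.9 CPM for Csf1r of the immune list. The 6 mesothelial genes reached 657 CPM, in the hilar culture of WT mouse 1225. Most of that sum was Msln, with group means of 201 to 464 CPM. Wt1 was at 0 in both WT groups, against 2.10 ± 1.54 CPM in Ndr hilar and 9.12 ± 14.6 CPM in Ndr peripheral cultures (SD, n = 3). Genes of cell division did not stay level. The 44 proliferation genes summed to 5735 CPM in the WT hilar culture of mouse 1225, against 841 to 1472 CPM in the other 5 hilar cultures and 1908 to 3893 CPM in the 6 peripheral ones. Because the RNA came from whole cultures, fewer cells of a kind and less RNA per cell cannot be told apart.

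RefSeq promoters on GRCm38.p6, from 250 bases before to 50 after the start, were available for 23 of the 28 genes (31 promoters). The sterol regulatory element core, TCACNCCAC, was found on either strand in 1 of the 23 genes, Hmgcs1, where it begins 137 bases before the start, against 1.44% of all 27025 genes of the table. The CCAAT box bound by NF-Y, a partner of SREBP, was found in 20 of the 23 genes (87.0%, against 41.1% of all genes) and the GC box GGGCGG bound by Sp1 in 22 (95.7%, against 38.2%). The E-box CACGTG was found in 6 (26.1%, against 8.09%). These promoters were also richer in G and C than the rest, with a median of 62.3% against 52.7%, and 73.0% and 81.1% of the 37 proliferation genes with an entry held CCAAT and the GC box. Among the 104 matches, those of different motifs did not overlap within a promoter, and overlaps between matches of the same motif were not checked. Sites shared by the 2 overlapping Scap promoters were counted in both. A match is a run of letters and not a measured binding site. The 250 bases before the start are shown for 4 genes whose values the account below turns on: an early enzyme with the sterol element, the enzyme whose hilar and peripheral values took opposite directions in the 2 genotypes, the sterol sensor, and an exporter. Capitals mark the sterol element core, the CCAAT box (ATTGG on the other strand), the GC box (CCGCCC on the other strand) and the E-box. Hmgcs1 is shown from chr13:119690101-119690350 on the plus strand, with 1 sterol element, 3 CCAAT boxes and 2 GC boxes. Mvk is shown from chr5:114444019-114444268 on the plus strand, with 5 CCAAT boxes and 2 GC boxes. Insig1 is shown from chr5:28071162-28071411 on the plus strand, with 1 E-box, 1 CCAAT box and 3 GC boxes. Abca1 is shown from chr4:53159896-53160145 on the minus strand, with 1 E-box, 2 GC boxes and no CCAAT box.
Hmgcs1: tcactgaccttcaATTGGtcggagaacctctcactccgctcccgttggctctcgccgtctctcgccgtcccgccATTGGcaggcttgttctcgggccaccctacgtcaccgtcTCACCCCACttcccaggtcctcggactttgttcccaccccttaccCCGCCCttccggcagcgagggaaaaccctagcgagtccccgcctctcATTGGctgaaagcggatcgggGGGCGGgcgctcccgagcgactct
Mvk: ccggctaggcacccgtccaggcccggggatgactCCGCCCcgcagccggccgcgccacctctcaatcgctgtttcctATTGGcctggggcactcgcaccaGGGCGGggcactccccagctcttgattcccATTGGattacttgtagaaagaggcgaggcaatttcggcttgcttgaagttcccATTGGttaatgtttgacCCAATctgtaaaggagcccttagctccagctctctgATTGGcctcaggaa
Insig1: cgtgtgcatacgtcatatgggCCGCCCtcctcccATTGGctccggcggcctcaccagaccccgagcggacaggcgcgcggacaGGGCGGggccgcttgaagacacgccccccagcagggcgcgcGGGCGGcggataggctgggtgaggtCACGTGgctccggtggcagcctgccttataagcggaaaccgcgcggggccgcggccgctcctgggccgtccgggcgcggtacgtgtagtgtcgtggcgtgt
Abca1: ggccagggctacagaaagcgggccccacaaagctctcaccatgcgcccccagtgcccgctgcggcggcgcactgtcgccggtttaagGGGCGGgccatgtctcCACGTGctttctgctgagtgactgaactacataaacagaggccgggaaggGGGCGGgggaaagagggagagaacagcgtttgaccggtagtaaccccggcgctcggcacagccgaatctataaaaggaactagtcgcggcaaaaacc

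The enzymes kept a common order of libraries. As a mean over the 19 enzymes of log2 CPM centred on each gene's own mean over the 12 libraries, the WT hilar cultures stood at -0.56, -0.40 and 0.92 and the Ndr hilar cultures at -0.23, -0.55 and -0.49. The WT peripheral cultures stood at -0.25, -0.25 and 0.29 and the Ndr peripheral cultures at 0.42, 0.83 and 0.28. Hilar cultures were thus low in 5 of 6 mice, and the culture of WT mouse 1225 was the highest of all. In that culture all 19 enzymes lay above their own mean, while in the hilar cultures of the other 5 mice between 0 and 5 did. In the Ndr peripheral cultures 17 to 19 of 19 lay above it. The WT peripheral cultures split by mouse, with 17 of 19 enzymes above their own mean in mouse 1225 and 0 and 2 in mice 1221 and 1223. The group means were -0.01 ± 0.82 (SD, n = 3) for WT hilar, -0.42 ± 0.17 (SD, n = 3) for Ndr hilar, -0.07 ± 0.31 (SD, n = 3) for WT peripheral and 0.51 ± 0.29 (SD, n = 3) for Ndr peripheral organoids. Of the 19 enzymes, 12 had their highest CPM in the hilar culture of mouse 1225 and the other 7 in the peripheral culture of Ndr mouse 1220, and 18 had their lowest in a hilar culture. The highest library exceeded the lowest 1.83-fold for Sc5d and 6.26-fold for Idi1, with a median of 3.39-fold.

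**Figure D1:**
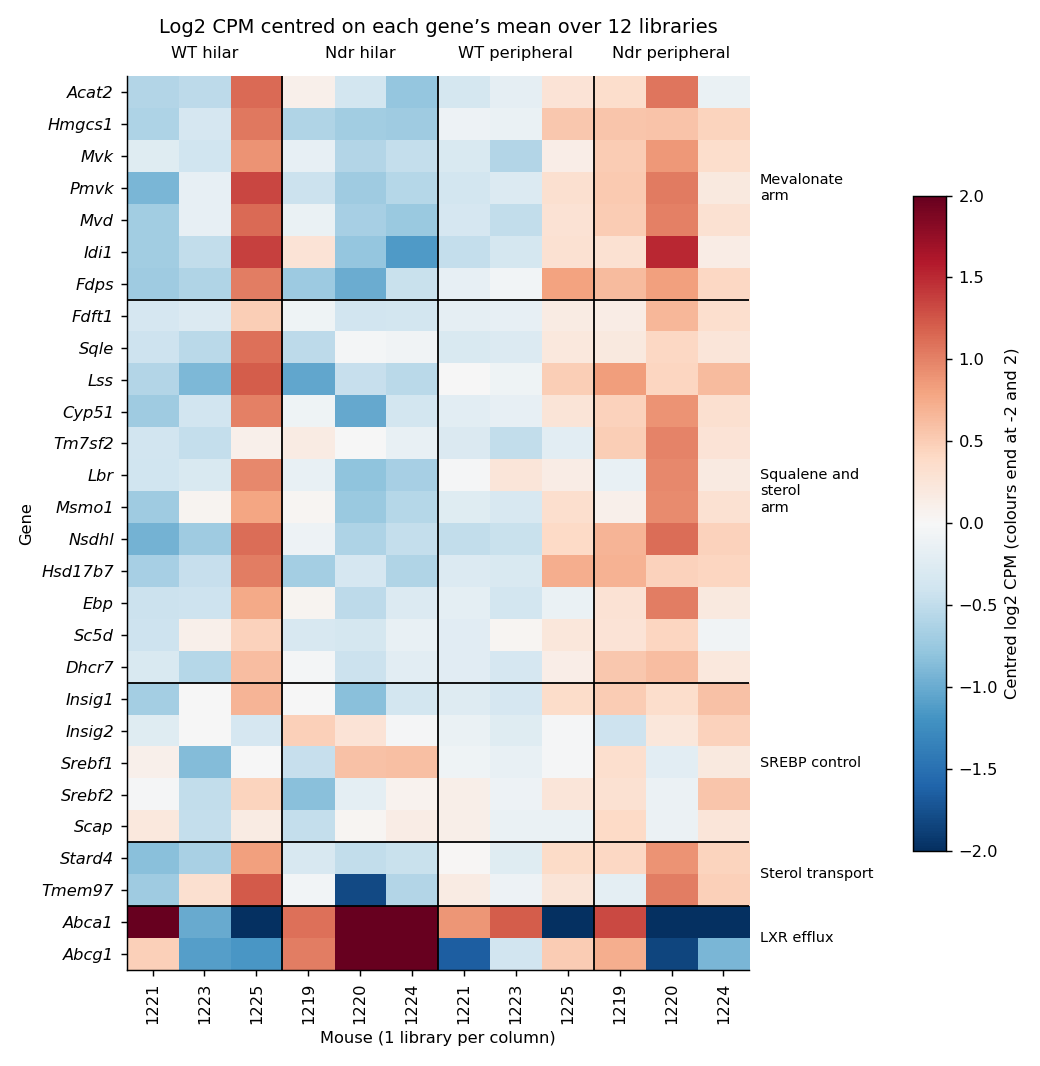
Log2 CPM of the 28 genes (rows, grouped by role) in 12 libraries (columns, labelled by mouse), centred on each gene's mean over the libraries; red is above and blue below that mean, and colours end at -2 and 2. The enzymes are red in the hilar culture of WT mouse 1225 and in the Ndr peripheral cultures, and Abca1 and Abcg1 are blue in the first of these.

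Growth genes ran mostly in a like order. The 44 proliferation genes stood at -0.36, -1.01 and 1.73 in WT hilar, -0.35, -1.36 and -1.19 in Ndr hilar, 0.05, 0.23 and 0.44 in WT peripheral and 0.29, 1.22 and 0.32 in Ndr peripheral cultures on the same scale. All 44 lay above their own mean in the hilar culture of WT mouse 1225 and in the peripheral culture of Ndr mouse 1220, the libraries in which every enzyme of the sterol pathway did. In the hilar cultures of the other 5 mice 0 to 11 of 44 did. The lists parted in the peripheral cultures of WT mice 1221 and 1223. There 22 and 37 of 44 proliferation genes lay above their own mean, against 0 and 2 of 19 enzymes. What part growth has in the enzyme values was not tested.

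**Figure D2:**
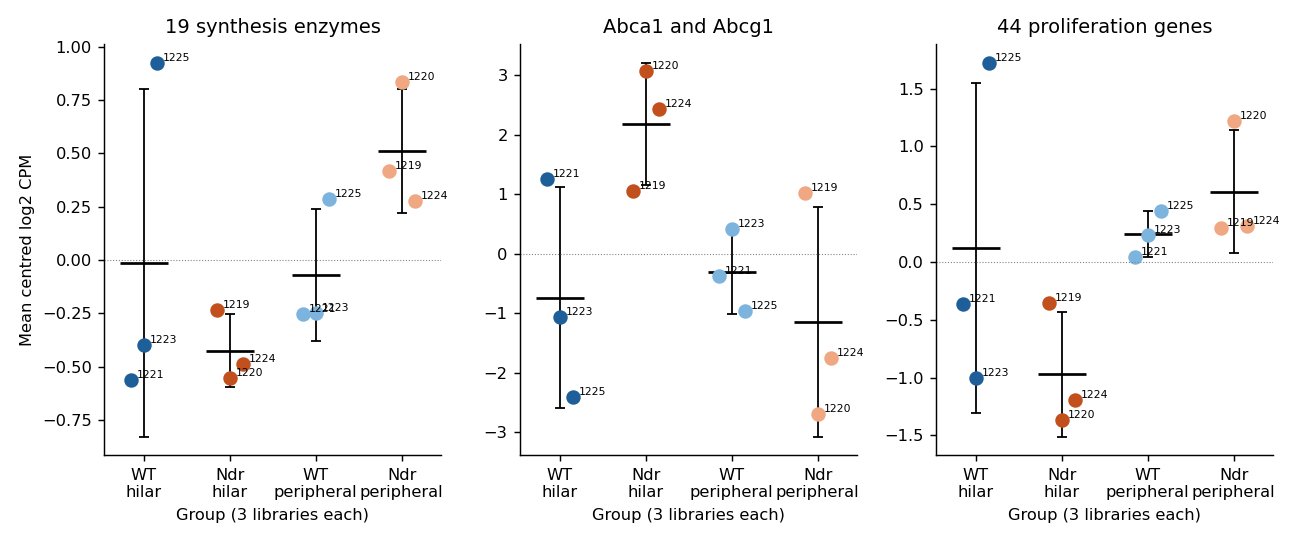
Mean centred log2 CPM (vertical axis) of the 19 enzymes, of Abca1 and Abcg1, and of 44 proliferation genes, by group; each point is 1 library labelled by mouse, and bars give the mean and SD of 3 libraries. The WT hilar group spans -0.56 to 0.92 for the enzymes because mouse 1225 stands apart from the other WT hilar cultures.

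The mevalonate arm was measured through 7 enzymes. Hmgcs1 (ENSMUSG00000093930), which condenses acetoacetyl-CoA with acetyl-CoA, was at 204, 248 and 648 CPM in WT hilar, 206, 192 and 191 in Ndr hilar, 289.8, 285 and 454 in WT peripheral and 457, 462 and 422 in Ndr peripheral cultures. Its 3 Ndr hilar values lay close together and below every peripheral value, and the hilar value of WT mouse 1225 was the highest. Per kilobase of exon, Hmgcs1 was the most abundant of the 28 genes, with a mean of 73.6 CPM per kb, and Fdps the least abundant enzyme, with 6.37. The exons of Fdps share 1124 bases with those of Gm43738 on the same strand, so its count and this rank are uncertain. Acat2, a thiolase that makes acetoacetyl-CoA, ranged from 69.3 to 260.3 CPM, and 5 of 6 mice had the lower value in the hilum. Part of its reads may belong to the related gene Acat3, which had 3478 reads over all libraries against 15156 for Acat2.

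Mvk (ENSMUSG00000041939), the mevalonate kinase, was at 21.1, 18.8 and 46.5 CPM in WT hilar, 22.4, 16.6 and 17.8 in Ndr hilar, 20.1, 16.6 and 27.5 in WT peripheral and 35.8, 45.8 and 32.0 in Ndr peripheral cultures. Every Ndr peripheral value exceeded every WT peripheral one. Pmvk, which adds the next phosphate, was at 17.8, 29.9 and 85.1 CPM in WT hilar, 25.0, 20.5 and 22.6 in Ndr hilar, 26.0, 27.8 and 42.1 in WT peripheral and 48.7, 69.7 and 38.5 in Ndr peripheral cultures. Mvd, the decarboxylase that follows, was at 33.7, 48.9 and 120.0 CPM in WT hilar, 50.2, 34.4 and 32.5 in Ndr hilar, 43.2, 38.9 and 66.7 in WT peripheral and 78.3, 111 and 67.7 in Ndr peripheral cultures. In Pmvk the Ndr and WT peripheral values overlapped, and in Mvd they did not. Idi1, which makes the second isoprene unit, ranged most of all enzymes: it was at 49.3 CPM in the hilar and 119 CPM in the peripheral culture of Ndr mouse 1224, and at 62.9 and 309 CPM in those of Ndr mouse 1220. Its hilar values were the lower in 5 of 6 mice. Fdps, which makes farnesyl pyrophosphate, was at 14.6, 15.7 and 48.9 CPM in WT hilar, 14.5, 11.99 and 17.6 in Ndr hilar, 21.3, 23.1 and 42.1 in WT peripheral and 37.2, 42.7 and 32.0 in Ndr peripheral cultures. The lowest Ndr peripheral value of Fdps was thus above the highest Ndr hilar one.

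The sterol arm was measured through 12 enzymes. Fdft1, the squalene synthase at its entrance, ranged from 107 to 222 CPM, and its exons overlap those of Ctsb on the other strand. Sqle, the squalene epoxidase that limits the rate of the later pathway, was at 144, 132 and 411 CPM in WT hilar, 132, 186 and 181 in Ndr hilar, 155, 158 and 222 in WT peripheral and 218, 256 and 226 in Ndr peripheral cultures. The cultures of mouse 1225 held the highest WT values of Sqle in both regions. Lss, which closes the rings to lanosterol, was at 68.6, 55.2 and 239.5 CPM in WT hilar, 50.5, 74.9 and 71.5 in Ndr hilar, 103, 97.7 and 146 in WT peripheral and 184, 139 and 161 in Ndr peripheral cultures. All Ndr hilar values of Lss lay below all 6 peripheral values. Cyp51, the lanosterol demethylase, was at 163, 204 and 535 CPM in WT hilar, 250.4, 131 and 206 in Ndr hilar, 229.7, 236 and 316 in WT peripheral and 366, 497 and 331 in Ndr peripheral cultures. Here the Ndr peripheral values stood above the WT peripheral ones without overlap.

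The sterol ring is then reduced and stripped of methyl groups. Tm7sf2 (ENSMUSG00000024799), a sterol reductase, departed from the pattern of the other enzymes: it was at 30.1, 28.4 and 42.3 CPM in WT hilar, 44.2, 39.5 and 35.6 in Ndr hilar, 32.1, 27.96 and 34.3 in WT peripheral and 55.5, 78.7 and 47.7 in Ndr peripheral cultures. It alone among the enzymes had a higher fitted level in Ndr than in WT in both regions. Its exons share 532 bases with those of Vps51 on the same strand, so its count is uncertain. Lbr, a lamin receptor with the same reductase activity, ranged from 36.6 to 124 CPM. Msmo1, the methyl sterol oxidase, ranged from 150.1 to 485 CPM. Nsdhl, which removes the oxidized methyl carbon, was at 62.0, 72.8 and 258 CPM in WT hilar, 111, 77.8 and 85.8 in Ndr hilar, 84.7, 87.3 and 156 in WT peripheral and 192, 258 and 165 in Ndr peripheral cultures. Nsdhl therefore separated the genotypes in the periphery and not in the hilum. Hsd17b7, the keto sterol reductase of the same complex, ranged from 23.8 to 77.9 CPM.

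The last steps move and remove double bonds. Ebp, the sterol isomerase, was at 44.8, 44.9 and 102 CPM in WT hilar, 62.6, 42.0 and 49.6 in Ndr hilar, 52.5, 46.8 and 54.6 in WT peripheral and 73.4, 122 and 69.3 in Ndr peripheral cultures. Dhcr7, which reduces a double bond of the ring, was at 60.4, 50.3 and 114 CPM in WT hilar, 72.6, 55.1 and 64.8 in Ndr hilar, 63.9, 59.3 and 82.1 in WT peripheral and 109, 115 and 86.4 in Ndr peripheral cultures. In both genes every Ndr peripheral value exceeded every WT peripheral value, and the hilar groups overlapped. Sc5d, the desaturase before Dhcr7, was the most even enzyme, at 98.7 to 181 CPM.

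The genes that sense sterol did not move as a block. Insig1 (ENSMUSG00000045294), itself a target of SREBP, was at 68.5, 109.8 and 176 CPM in WT hilar, 109.6, 61.6 and 85.9 in Ndr hilar, 92.4, 87.6 and 143 in WT peripheral and 157, 141 and 166 in Ndr peripheral cultures. It followed the enzymes, with the hilar value below the peripheral one in all 3 Ndr mice. Insig2, the other anchor of Scap, was at 57.9, 68.0 and 54.2 CPM in WT hilar, 95.9, 82.6 and 67.3 in Ndr hilar, 62.4, 58.2 and 67.5 in WT peripheral and 51.2, 80.0 and 94.0 in Ndr peripheral cultures. Insig2 was low in the hilar culture of mouse 1225 and in the peripheral culture of Ndr mouse 1219, where the enzymes were high. In the peripheral cultures of Ndr mice 1220 and 1224 both Insig2 and the enzymes were high. Insig2 thus kept no common direction with the enzymes. Srebf2 was at 334, 240.0 and 461 CPM in WT hilar, 190.0, 296 and 355 in Ndr hilar, 367, 316 and 398 in WT peripheral and 418, 312 and 494 in Ndr peripheral cultures. Hilar Srebf2 was the lower in 5 of 6 mice. Srebf1, whose products favour fatty acid synthesis, was at 172, 87.6 and 159.8 CPM in WT hilar, 116, 240.2 and 243 in Ndr hilar, 151, 145 and 158 in WT peripheral and 201, 138 and 184 in Ndr peripheral cultures. Its highest values came from the hilar cultures of Ndr mice 1220 and 1224, in which none of the 19 enzymes exceeded its own mean. Scap ranged from 47.5 to 88.1 CPM, and its 4 groups overlapped.

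Of the sterol carriers, Stard4, which shuttles cholesterol between membranes, was at 56.6, 64.9 and 179.9 CPM in WT hilar, 81.1, 72.6 and 74.3 in Ndr hilar, 103, 85.8 and 133 in WT peripheral and 136, 189 and 138 in Ndr peripheral cultures. Tmem97, a sigma-2 receptor linked to cholesterol trafficking, was at 18.5, 37.9 and 70.7 CPM in WT hilar, 29.0, 8.47 and 20.01 in Ndr hilar, 34.0, 28.1 and 36.2 in WT peripheral and 26.4, 61.4 and 42.1 in Ndr peripheral cultures. Both had their lowest value in the hilum, and Stard4 separated the genotypes in the periphery.

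The exporters varied more than the enzymes. Abca1 (ENSMUSG00000015243), which loads cholesterol onto apolipoprotein A-I, was at 23.3, 2.62 and 0.251 CPM in WT hilar, 11.98, 90.4 and 36.3 in Ndr hilar, 10.3, 13.0 and 0.847 in WT peripheral and 13.9, 0.282 and 0.731 in Ndr peripheral cultures. The lowest values rest on few reads, 2 in the hilar culture of WT mouse 1225 and 3 in the peripheral culture of Ndr mouse 1220, against 694 in the hilar culture of that same Ndr mouse. Abcg1 (ENSMUSG00000024030), which passes cholesterol to lipoprotein particles, was at 10.5, 3.39 and 3.26 CPM in WT hilar, 15.5, 33.9 and 34.8 in Ndr hilar, 2.27, 5.73 and 10.8 in WT peripheral and 12.6, 1.98 and 3.93 in Ndr peripheral cultures. The 2 libraries in which all 19 enzymes were above their own mean were those with the fewest Abca1 reads. The 2 hilar cultures with the highest Abca1 and Abcg1, those of Ndr mice 1220 and 1224, had no enzyme above its own mean. The other cultures were mixed. The peripheral culture of Ndr mouse 1219 had both exporters above their own mean (1.31 for Abca1 and 0.72 for Abcg1 on the centred log2 scale) with 18 of 19 enzymes above theirs. The hilar culture of WT mouse 1223 had both exporters low (-1.01 and -1.11) with the enzymes at -0.40. Opposition was seen in the hilar cultures of WT mouse 1221 (2.045 and 0.471, with 0 of 19 enzymes above) and Ndr mouse 1219 (1.099 and 1.024, with 5 of 19). The peripheral culture of Ndr mouse 1224 showed it as well (-2.605 and -0.9065, with 17 of 19 enzymes above). In each WT peripheral culture only 1 of the 2 exporters lay above its own mean. Per kilobase of exon both were the least abundant of the 28 genes, at 1.64 and 1.58 CPM per kb on average. Over the 12 libraries the median SD of log2 CPM was 0.566 for the 28 genes and 0.428 for all 15014.

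**Figure D3:**
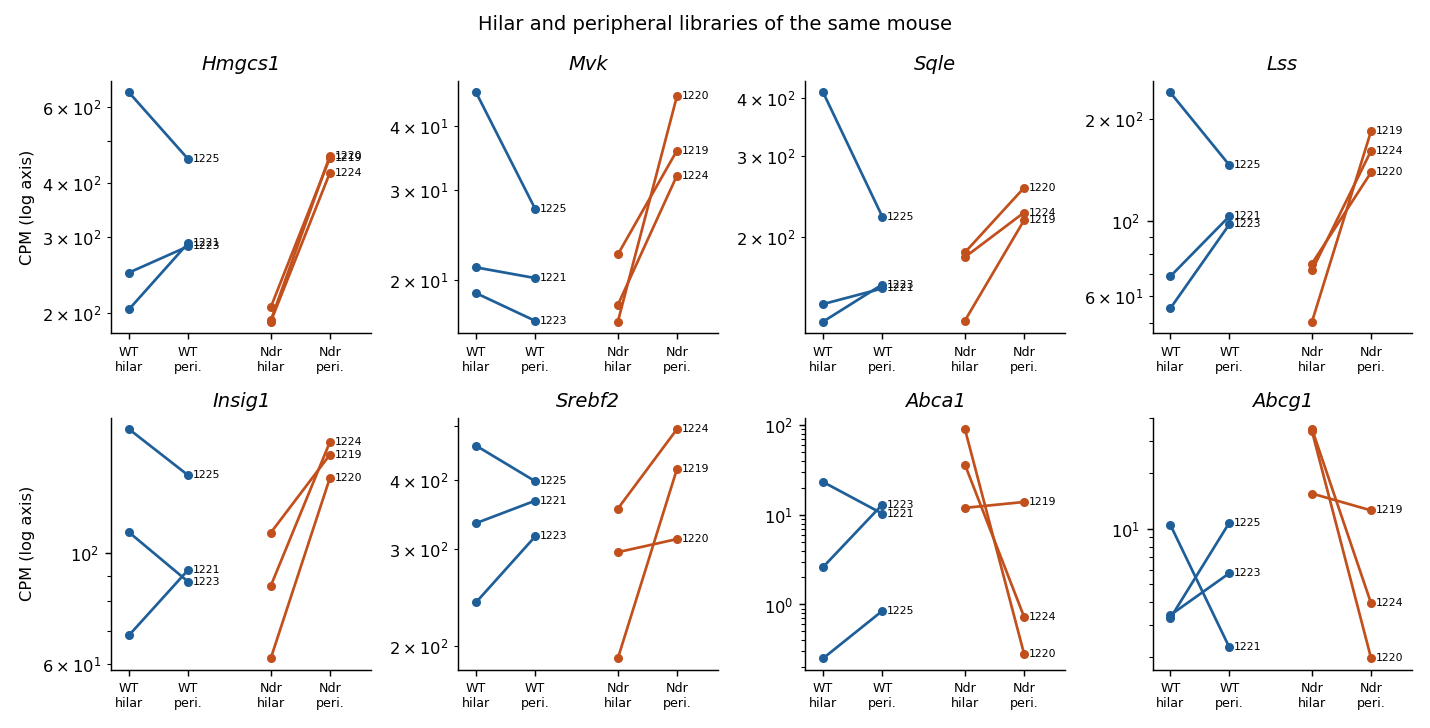
CPM on log axes of 8 of the genes in hilar and peripheral (peri.) libraries; a line joins the cultures of 1 mouse, blue for WT and orange for Ndr, with the mouse number at its peripheral end. Lines of Hmgcs1, Lss and Sqle climb from hilar to peripheral in all 3 Ndr mice and descend in WT mouse 1225.

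Region within Ndr mice gave the largest median difference of the 4 contrasts between pairs of groups. The hilar culture had less of 18, 19 and 19 of the 19 enzymes in mice 1219, 1220 and 1224, and 18 enzymes were lower in all 3, the exception being Lbr. Insig1, Srebf2 and Stard4 were lower in all 3 mice as well, so 21 of the 28 genes were, against 12.8% of all genes tested, and 1 gene, Abcg1, was higher in all 3, where 12.8% of all genes were. The mean over the enzymes differed between hilum and periphery by -0.65, -1.39 and -0.76 on the log2 scale in these mice. By the edgeR fit 24 of the 28 genes had a negative log2 difference of hilar minus peripheral, with a median of -0.87 against -0.01 over all genes tested. The edgeR test called 0% of genes at an adjusted p of 0.05 and so none of the 28. At an unadjusted p of 0.05, 18 of the 28 were lower and 1 was higher, where 10.3% of all genes passed in either direction.

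In that contrast Hmgcs1 differed by -1.19 (SE 0.386, edgeR adjusted p = 0.418), with means of 196 ± 8.43 CPM in the hilum and 447 ± 21.8 CPM in the periphery (SD, n = 3). Fdps differed by -1.34 (SE 0.450) and Mvk by -0.997 (SE 0.345), both at an edgeR adjusted p = 0.418. Abcg1 differed in the other direction, by 2.19 (SE 0.760, edgeR adjusted p = 0.418), with 28.1 ± 10.9 CPM in the hilum and 6.16 ± 5.65 CPM in the periphery (SD, n = 3), though mouse 1219 held nearly equal amounts at 15.5 and 12.6 CPM. The arms were alike, with medians of -1.19 for the 7 mevalonate enzymes and -0.83 for the 12 sterol enzymes. The 44 proliferation genes had a median of -1.73 and were all negative, and their mean differed by -0.64, -2.58 and -1.51 in mice 1219, 1220 and 1224. Their part in the enzyme difference was not tested. With the mouse as a block, the median of the 28 genes was likewise -0.87.

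Within WT mice the same contrast gave no common direction across animals. The mean over the enzymes differed between hilum and periphery by -0.31, -0.15 and 0.64 in mice 1221, 1223 and 1225, and the hilar culture had less of 18, 13 and 0 of the 19 enzymes. Mouse 1225, the only WT mouse whose cultures were derived on 21 June 2021, thus went against the other WT mice and against all 3 Ndr mice. Fitted over the 3 mice, 22 of the 28 genes had a positive difference with a median of 0.11, against 0.03 over all genes tested. Only Mvk was higher in the hilum in all 3 mice, where 10.3% of all genes were, and none of the 28 was lower in all 3, where 9.36% were. No gene passed an adjusted p of 0.05 with edgeR (0%), and none of the 28 passed an unadjusted p of 0.05, where 0.506% of all genes did.

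The smallest p-values in WT mice belonged to Mvk, at 0.43 (SE 0.343), Mvd, at 0.44 (SE 0.425), Pmvk, at 0.47 (SE 0.475), and Ebp, at 0.32 (SE 0.341), all with an edgeR adjusted p = 1. Without the hilar culture of mouse 1225 the direction turned: 3 of the 28 genes were positive and 25 negative, the median was -0.28, and these 4 genes stood at -0.10, -0.26, -0.42 and -0.19. With the mouse as a block the median was 0.02. Across mice, the share of all genes that were lower in the hilum lay between 47.1% and 53% in each of the 6 animals.

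The difference between the genotypes in this contrast, the interaction, was negative for all 19 enzymes, with a median of -1.05 for the 28 genes against -0.05 for all genes. It was -1.42 for Mvk (SE 0.486), -1.57 for Mvd (SE 0.604), -1.67 for Pmvk (SE 0.676) and -1.28 for Hmgcs1 (SE 0.540), each with an edgeR adjusted p = 0.994. None of the 28 passed the adjusted threshold, as 0% of all genes did with edgeR, and 5 passed an unadjusted p of 0.05, all negative, where 3% of all genes passed. The difference between genotypes in how hilum and periphery compare was therefore not established for any of these genes. Without the hilar culture of WT mouse 1225 the median was -0.40, and with the mouse as a block it was -0.91.

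**Figure D4:**
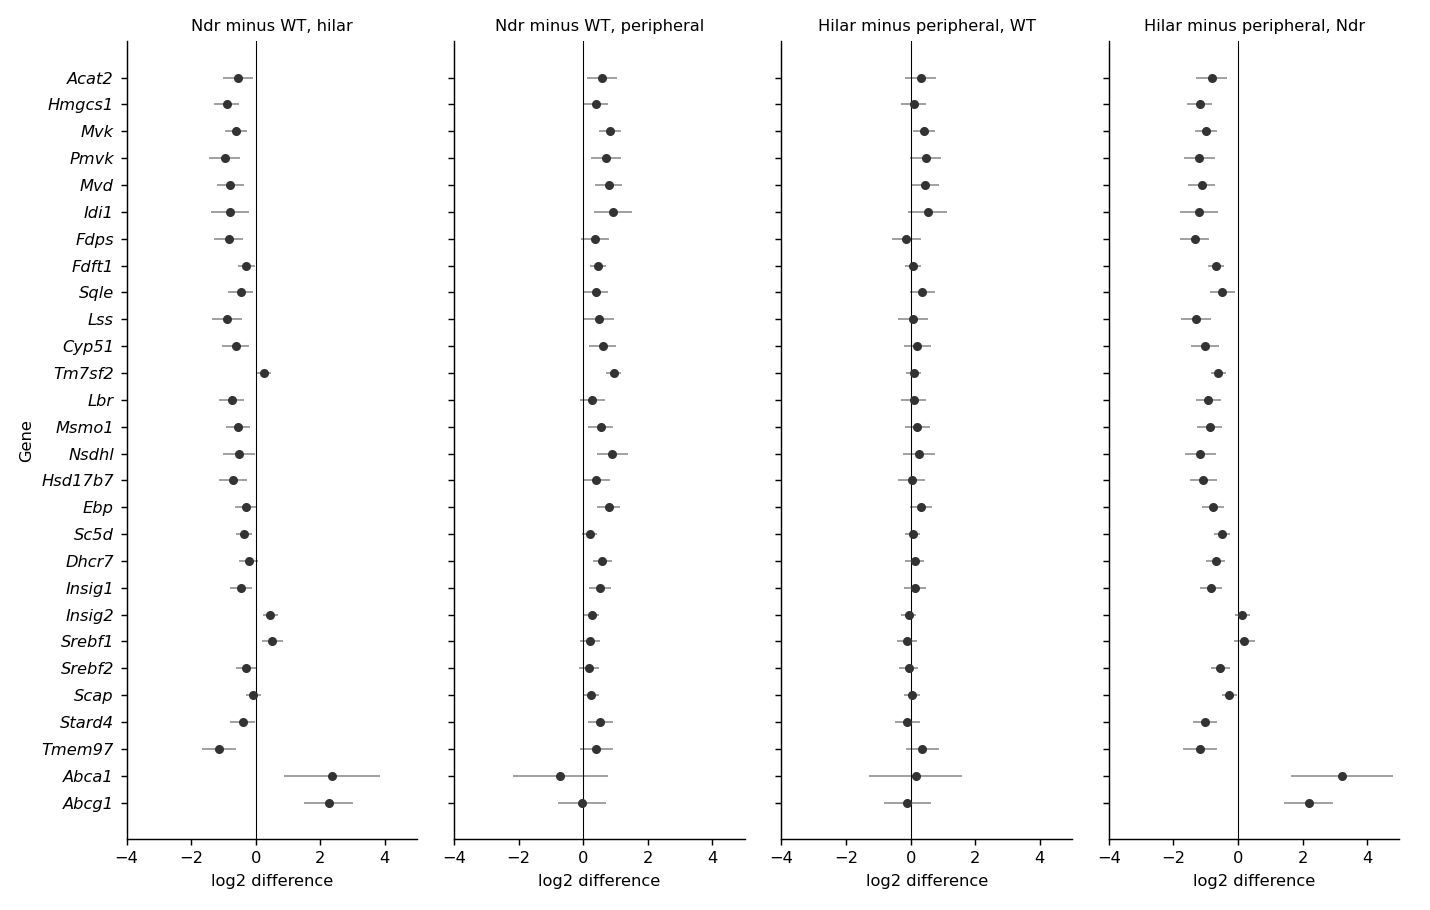
Log2 differences (horizontal axis) of the 28 genes in the 4 contrasts of the 12-library edgeR fit; points are estimates and lines reach 1 SE to either side. In hilar minus peripheral within Ndr mice, 24 of 28 points lie left of 0, and in Ndr minus WT within the periphery 26 lie right of it.

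Between genotypes in the periphery, none of the 28 genes passed the edgeR test on raw counts. The direction of the 28 turned with the table and in the fit with date as a factor. In the raw counts all 19 enzymes and 26 of the 28 genes had a positive log2 difference of Ndr minus WT, with a median of 0.47 for the 28 against 0.03 for all genes. Without the peripheral culture of WT mouse 1225 the median was 0.73. In the authors' normalized values it was -0.21 with limma (12 positive and 16 negative) and -0.24 with edgeR on their whole reads (11 and 17). For 8 of the 28, every Ndr value exceeded every WT value (Mvk, Mvd, Cyp51, Tm7sf2, Nsdhl, Ebp, Dhcr7 and Stard4), where 5.4% of all genes did so, and none lay below without overlap, where 3.62% did. No gene passed an adjusted p of 0.05 with edgeR (0%), and 3 of the 28 passed an unadjusted p of 0.05, where 2.92% of all genes did.

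Tm7sf2 had the smallest p of the 28 in the periphery, at a difference of 0.95 (SE 0.234, edgeR adjusted p = 1), from 31.5 ± 3.22 CPM in WT to 60.6 ± 16.1 CPM in Ndr cultures (SD, n = 3). Mvk differed by 0.82 (SE 0.343), Ebp by 0.78 (SE 0.342) and Dhcr7 by 0.59 (SE 0.290), all with an edgeR adjusted p = 1. The 44 proliferation genes had a median of 0.41 in the same contrast, with 41 positive, and their part in these differences was not tested. Genotype and date were nearly aligned, since 21 June 2021 was the only derivation date with both genotypes. On that date the peripheral culture of Ndr mouse 1224 exceeded that of WT mouse 1225 in 18 of the 28 genes and in 11 of the 19 enzymes, with a median of 0.06. Date as a factor gave a median of -0.18, the opposite sign. That fit takes the mean genotype difference over both regions from mice 1224 and 1225 alone, so their hilar cultures enter the peripheral value.

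In the hilum the sign was the reverse and rested on 1 culture. Of the 28 genes 23 had a negative difference of Ndr minus WT, with a median of -0.49 against -0.0046 over all genes, and 18 of the 19 enzymes were negative. Without the hilar culture of WT mouse 1225, 17 were positive and 11 negative, with a median of 0.06. No member passed an adjusted p of 0.05 with edgeR, as 0% of all genes did. At an unadjusted p of 0.05, 1 was higher and 1 lower, where 6.54% of all genes passed. Only Abcg1 separated the genotypes, above WT, where 4.55% of all genes were above and 4.19% below without overlap.

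Abcg1 differed in the hilum by 2.26 (SE 0.761, edgeR adjusted p = 0.75), from 5.73 ± 4.16 CPM in WT to 28.1 ± 10.9 CPM in Ndr cultures (SD, n = 3). Hmgcs1 differed by -0.90 (SE 0.384), Tmem97 by -1.14 (SE 0.519) and Pmvk by -0.96 (SE 0.480), all at an edgeR adjusted p = 0.75, and the groups overlapped in each. The hilar SDs show where the spread lay, as Hmgcs1 had 366 ± 245 CPM in WT organoids against 196 ± 8.43 CPM for Ndr ones (SD, n = 3). The proliferation genes were all negative in this contrast, with a median of -1.67, and their part was not tested. On the shared date, the hilar culture of Ndr mouse 1224 was below that of WT mouse 1225 in 24 of the 28 genes and in all 19 enzymes, with a median of -1.31. The authors' normalized values gave another count. As log2 signal tested with limma, 17 of the 28 genes passed an adjusted p of 0.05 (15 enzymes, Insig1 and Abca1). They were among 1480 genes called of 15014 tested, with a median of -1.11 over the 28.

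Summed over the pair of cultures of each mouse, the enzymes did not separate the genotypes as a group. Of the 28 genes 19 had a positive difference of Ndr minus WT, with a median of 0.13 against -0.0045 over 15401 genes. Such totals weigh each culture by its counts, which were unequal between the regions of a mouse. With the 12 libraries in place of totals, 15 of the 28 genes were positive and 13 negative, with a median of 0.023. Of the 28, 3 (Abcg1, Tm7sf2 and Insig2) were higher in every Ndr mouse than in every WT mouse, where 5.49% of all genes were, and none lower, where 5.78% were. The same 3 genes passed an unadjusted p of 0.05, where 5.42% of all genes did, and none passed the adjusted threshold with edgeR (0%). Abcg1 stood at 7.14, 4.72 and 7.45 CPM in the WT and 13.9, 15.0 and 16.9 CPM in the Ndr mice, a difference of 1.24 (SE 0.232, edgeR adjusted p = 0.437). Of the tools run on the raw counts, DESeq2 called it among 113 of 15401 genes, and edgeR and limma-voom did not. In the other contrasts none of these 3 tools called any of the 28.

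Tm7sf2 stood at 31.3, 28.2 and 38.5 CPM in the WT and 48.8, 60.9 and 42.9 CPM in the Ndr mouse totals, a difference of 0.64 (SE 0.186, edgeR adjusted p = 0.799). Insig2 stood at 60.4, 62.5 and 62.3 CPM in the WT and 72.9, 79.3 and 83.3 CPM in the Ndr totals, a difference of 0.35 (SE 0.111, edgeR adjusted p = 0.869). The Srebf1 totals overlapped, with a difference of 0.28 (SE 0.181, edgeR adjusted p = 0.915). Without WT mouse 1225 all 28 genes were positive with a median of 0.51, and without WT mouse 1221 the median was -0.06. With the date as a factor the median was -0.53, from Ndr mouse 1224 against WT mouse 1225 alone, the only pair with a shared date. In the authors' normalized values the median was -0.61. There limma called 23 of the 28 genes among 7388 of all 15401 genes tested, so calls were common over all genes.

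Neighbouring pathways were followed in the same fits, and no gene of these lists passed an adjusted p of 0.05 with edgeR in any contrast. Of 18 tested genes of fatty acid synthesis, the set that Srebf1 governs, 16 were lower in the hilum of Ndr mice and 15 were higher in Ndr than WT periphery, with medians of -0.38 and 0.38. Elovl5, a fatty acid elongase, and Lpin1, a phosphatidate phosphatase, had the smallest p in Ndr hilum against periphery, at -0.92 (SE 0.256) and -1.03 (SE 0.294), both at an edgeR adjusted p = 0.418. Elovl6, another elongase, was at 162 CPM in the hilar culture of WT mouse 1225 and at 20.05 and 32.4 CPM in the hilar cultures of the other WT mice, so it ran with the sterol enzymes there. The 14 genes of the isoprenoid branches that lead to dolichol, ubiquinone and protein prenylation were split: in Ndr hilum against periphery 9 were positive and 5 negative with a median of 0.03. Among them only Fntb, a subunit of farnesyltransferase, was lower in the hilum in all 3 Ndr mice, where 12.8% of all genes were. None was higher in all 3, where 12.8% of all genes were as well. Fntb differed by -0.61 (SE 0.201, edgeR adjusted p = 0.418). Of 19 tested genes of other sterol steps, uptake and storage, 13 were negative in that contrast with a median of -0.21. Of 9 tested LXR receptors and further targets, 4 were positive and 5 negative with a median of -0.13, while Abca1 and Abcg1 were both positive. Abcg8, the exporter of sterol into bile, was at 0 reads in every library.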

How the data were processed

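RNA sequencing of 12 organoid cultures was used. The authors deposited raw counts per gene. The submitters' processing notes name featureCounts, DESeq2 1.34.0 and GRCm39. Neither aligner, annotation release nor strand setting is given in the sources used here, so reads of overlapping or related genes are uncertain. A second table deposited by the authors holds normalized values (signal). Every value of that signal table came out whole after division by 1 step per library (100% within a tolerance of 0.01), and these reads equalled the raw counts in 43.1% of cells, which no header or label explains. For 1 library the step was about the size of 1 read.

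All main results start from the raw counts. The test was the robust quasi-likelihood F test of edgeR 4.0.16 in R 4.3.3, after filterByExpr and TMM scaling. The 12 libraries were fitted with 1 coefficient per group, which left 8 residual degrees of freedom and 15014 genes. Genotype over both regions was tested on 6 mouse totals, with 4 residual degrees of freedom and 15401 genes. Adjustment of p-values followed Benjamini-Hochberg across every gene tested, at a threshold of 0.05, and each SE was derived from the F statistic. Centred values use log2 CPM with a prior count of 2. A contrast separates groups where no values overlap, and for region where all 3 mice share a sign. The precision of the CPM follows from the counts behind them, 6708822 to 16030880 per library. The steps were tested on simulated data with the same relative spread for every gene and no effect of mouse or date. That simulation therefore cannot tell how mouse or date bear on these results.

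Symbols and exon lengths came from GENCODE M21 on GRCm38, used for names and lengths only: 52093 of 53700 identifiers and all 200 listed symbols matched. Promoters came from RefSeq. Hilar and peripheral cultures with the same number come from 1 mouse, so the numbers pair them. Correlations of their deviations from the group means were 0.33, -0.06 and 0.45 for WT mice 1221, 1223 and 1225 and -0.31, -0.34 and 0.14 for Ndr mice 1219, 1220 and 1224.

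The members and lists were chosen with earlier results of these data known. Named with a test are, in each contrast, members past the threshold or otherwise the 4 with the smallest p, and for other lists the 2 with the smallest p. Departing from this, the lists of other sterol genes and LXR genes are given as counts and medians only, and the fatty acid and isoprenoid genes are named where the text speaks of the Ndr region contrast, with Elovl6 added after its values were seen. Alternatives were RLE scaling, total counts without TMM, no filter, DESeq2 1.42.0, limma-voom (limma 3.58.1), the normalized values (limma on log2 with a pseudocount of 1, and edgeR on their whole reads), date as a factor, the mouse as a replicate block, 12 libraries in place of totals, and leaving out each replicate.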

Additional observations from a re-analysis of the deposited data

Results flagged for a closer look

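Mvk stood out because its hilar and peripheral values took opposite directions in every mouse of the 2 genotypes. The log2 difference of hilar minus peripheral was 0.07 to 0.75 in the 3 WT mice and -1.46 to -0.67 in the 3 Ndr mice. The tested difference between these effects was -1.42 (edgeR adjusted p = 0.994), so it did not pass the threshold. Among all 15014 genes tested, 199 (1.33%) showed such opposite directions. Mvk was the only one of the 28 genes that did. Without the hilar culture of WT mouse 1225 the WT difference was -0.10. Groups of 3 were not tested for single outlying libraries.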

How the results depend on the processing

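The region contrast in Ndr mice kept 24 or 25 negative genes of 28 under every alternative tried, and edgeR on the raw counts called none of them. The genotype contrasts depend on the table and on date. In the hilum DESeq2 called 42 genes. The authors' normalized values gave 1480 of 15014 genes and 17 members with limma, at a median of -1.11. With edgeR on recovered reads they gave 1514 of 15377 genes and 16 members, at a median of -1.12. Date as a factor gave a median of -1.11. In the periphery DESeq2 called 6 genes, the normalized values 92 and 126 with medians of -0.211 and -0.241 (Ebp at -0.00412 in the second), and date gave -0.178 (Dhcr7 at -0.0119). In WT region the recovered reads gave 5 genes. In Ndr region DESeq2 called 72 genes. The normalized values gave 7 of 15014 and 30 of 15377 genes, with 1 member, Fdps, in the second. For the interaction DESeq2 called 4 genes and limma on the normalized values 2. Over both regions no filter gave 5 genes and DESeq2 113 of 15401 with 1 member, Abcg1. The normalized values gave 7388 of 15401 and 6753 of 15698 genes, with 23 and 22 members and medians of -0.614 and -0.543. Date gave a median of -0.527 there, which compares Ndr mouse 1224 with WT mouse 1225 alone and leaves 1 residual degree of freedom. The cause of these shifts was not tested.

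With the mouse as a replicate block no call changed, and the medians were 0.018, -0.870 and -0.911 for WT region, Ndr region and the interaction. Leaving out each replicate gave medians of -0.791 to 0.0561 in the hilum, 0.340 to 0.725 in the periphery (the highest without WT mouse 1225), -0.283 to 0.372 for WT region, -1.3 to -0.404 for the interaction and -0.0622 to 0.508 over both regions. The WT region values spanned -0.0963 to 0.652 for Mvk, -0.26 to 0.799 for Mvd, -0.421 to 0.88 for Pmvk and -0.19 to 0.553 for Ebp, with the lowest in each case without the hilar culture of mouse 1225. Genes called ranged from 0 to 2 in the periphery, 0 to 7 for Ndr region and 0 to 4 over both regions, and all the calls came without Ndr mouse 1219. Of 694 alternative values 633 counted as the same as the main one, 35 as stronger, 15 as reversed and 11 as moved. For a gene the same means an equal direction and side of the threshold. For a count the same means an equal number, which was 0 in every main fit, so much of the agreement is of 0 with 0. For a median the same means an equal sign and a shift below the SD within groups, and for a module mean such a shift alone. Few reads limit Abca1 and Abcg1 in the lowest libraries.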
